A study of Mus musculus with 6 samples.

Results

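Transcripts of 8 genes were followed in in vitro differentiated Th17 cells: *Il2*, which encodes the T cell growth factor IL-2, and 7 genes that encode receptor chains for IL-2 and for the cytokines that share its common gamma chain (*Il2ra*, *Il2rb*, *Il2rg*, *Il15ra*, *Il4ra*, *Il21r* and *Il9r*). They were found by gene symbol, and all 8 were present among the 16244 genes of the deposited table. The genes were picked with the difference between the genotypes already known, above all that of *Il2*, so that their values are given as a description without a p-value. Naive CD4+ T cells came from spleens of WT mice or of mice with the RORγtN275D knockin allele, in which 1 amino acid of the Th17 transcription factor RORγt is replaced, and 3 libraries were analysed for each genotype. Cells of both genotypes were stimulated with anti-CD3 and anti-CD28 for 3 days under pathogenic Th17 conditions. The series' design text gives these as IL-6, IL-1β and IL-23, and the methods also list TGF-β with antibodies against IL-4 and IFN-γ. The mutation was carried in the germline of C57BL/6 background knockin mice, and the WT mice were purchased C57BL/6 animals. Neither the exact age or zygosity of these donors nor the number of mice behind a library is given in the sources used here, so p-values measure only the spread between these samples, which may be technical.

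IL-2 is made by activated CD4+ T cells and acts back on them through a receptor of the alpha chain (*Il2ra*, CD25), the beta chain (*Il2rb*) and the common gamma chain (*Il2rg*). The beta and gamma chains signal through the kinases JAK1 and JAK3 to STAT5, which restrains Th17 differentiation and favours regulatory T cells. The common gamma chain is shared with the receptors for IL-4, IL-7, IL-9, IL-15 and IL-21, each of which adds a chain of its own.

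Each library held between 17659035 and 18510878 reads on genes, and normalized reads are these reads multiplied by 1 factor per library, set by the authors. Fold changes are on the log2(normalized reads + 1) scale, which understates those of low genes, and were fitted with limma over 11908 genes whose mean was 10 or more. WT replicate 3 stood farthest from its group. The CD4 T cell genes *Cd3d*, *Cd3e*, *Cd3g*, *Cd4* and *Cd5* and the Th17 genes *Il17a*, *Il17f*, *Il23r* and *Ccr6* were expressed in every library. Gene totals do not show the mutated base. Markers of other cells moved as well: 4 of 5 B cell markers tested were called higher in RORγtN275D cells, and so were 3 of 4 CD8 T and NK cell markers. Over all genes tested, 24.7% were called higher. The summed level of the 6 B cell markers was 1117 to 1155 normalized reads in WT and 1687 to 1754 in RORγtN275D libraries, most of it from *Ebf1*. Without *Ebf1* it was 150 to 160 in WT and 214 to 273 in RORγtN275D libraries. The 5 CD8 T and NK cell markers listed in the table summed to 201 to 216 and 284 to 325 normalized reads.

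Of the 8 genes, 4 were called higher and 3 lower in RORγtN275D cells at an adjusted p under 0.05, where 50.9% of all genes tested were called. By direction, 24.7% of all genes tested were called higher and 26.1% lower. At the minimum of 2-fold that the study used, 2 of the 8 were called, *Il2* lower and *Il9r* higher, against 3.59% of all genes tested (0.857% lower and 2.73% higher). The 3 libraries of one genotype lay entirely above those of the other for 7 of the 8, as they did for 57.7% of all genes tested (28.1% with RORγtN275D above, 29.6% with it below). The median log2 fold change of the 8 genes was 0.18, and that of all genes tested was -0.0026. These counts are a description and no evidence about the group, since the genes were picked on this contrast. Quantile normalization lowered the share of higher genes among the calls at 2-fold from 76.1% to 61.4% over all genes.

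**Figure D1:**
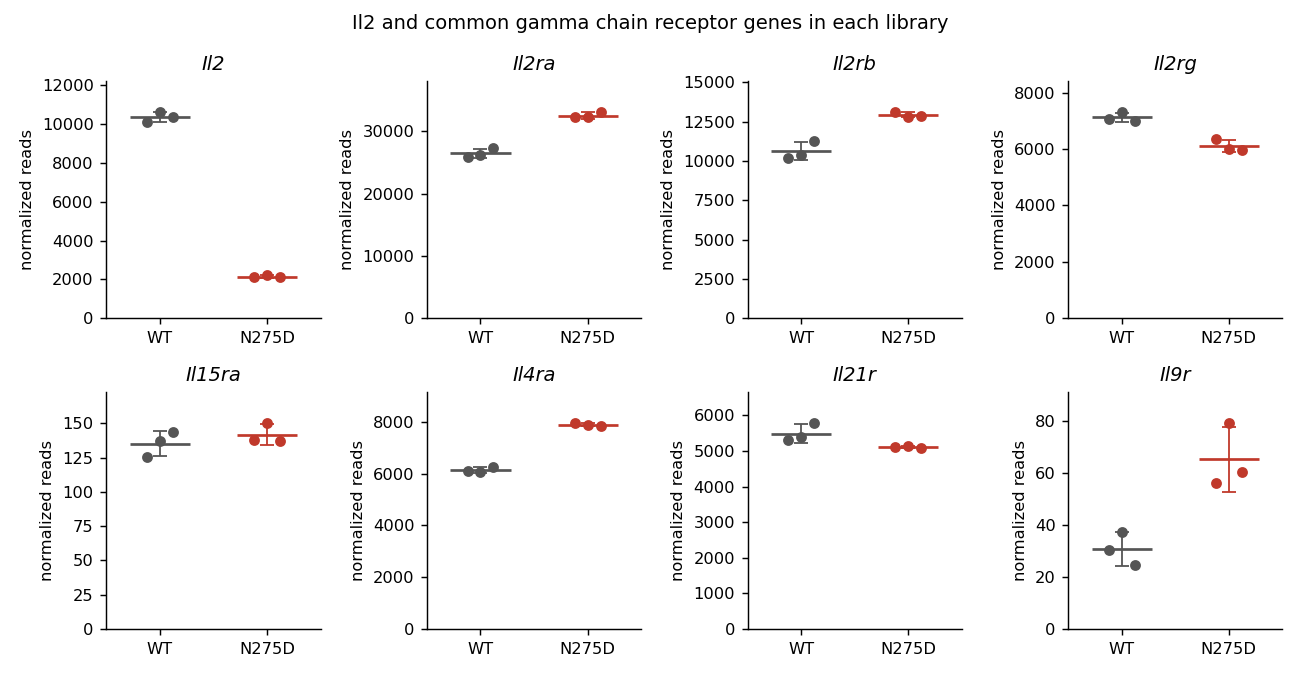
Normalized reads of the 8 genes in each library (points), with the mean (line) and SD (bars) of the 3 WT and the 3 RORγtN275D libraries, each axis starting at 0. The genotypes overlap only for *Il15ra*, and the gap is widest for *Il2*, from a WT mean of 10361 to 2142.

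*Il2* (gene ID 16183, GRCm38 chromosome 3, 37120713 to 37125954) was the gene with the largest difference of the 8. Its 3 WT libraries had 10101, 10626 and 10355 normalized reads, and its RORγtN275D libraries had 2104, 2222 and 2100. The genotypes did not overlap, and the spread within each was small next to the distance between them. The means were 10361 ± 262 and 2142 ± 69.4 (SD, n = 3 each), 4.84 times as high in WT, and the log2 fold change was -2.27 (standard error 0.04). Among the 11908 genes tested, 8 had a lower fold change and 26 a larger one in either direction. By mean normalized reads, without regard to length, *Il2* ranked 225th among all genes in WT and 1922nd in RORγtN275D cells. The summed level of the 5 CD4 T cell markers was 27114 to 28872 normalized reads in WT and 23159 to 23949 in RORγtN275D libraries, with *Cd5* the largest. *Cd5*, *Cd4* and *Cd3e* were called lower, as were 26.1% of all genes tested. *Cd3d* (0.05, limma adjusted p = 0.358) and *Cd3g* (0.04, limma adjusted p = 0.435) were not called. The part of these cells in the *Il2* difference was not tested. In bulk RNA, fewer cells that express a gene and less RNA per cell cannot be told apart.

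The sequence just upstream of the *Il2* start is where NFAT, a factor activated by T cell receptor signalling, is known to bind. It is shown with the same window of *Il2ra* and *Il4ra*, the alpha chain genes of the IL-2 and IL-4 receptors. Each is the 250 bases before the RefSeq start on GRCm38.p6, read 5′ to 3′ on the strand of the gene. Capitals mark the NFAT core GGAAA on either strand. The *Il2* window is chr3:37125955-37126204 on the minus strand, that of *Il2ra* is chr2:11642542-11642791 on the plus strand, and that of *Il4ra* is chr7:125552021-125552270 on the plus strand.
Il2: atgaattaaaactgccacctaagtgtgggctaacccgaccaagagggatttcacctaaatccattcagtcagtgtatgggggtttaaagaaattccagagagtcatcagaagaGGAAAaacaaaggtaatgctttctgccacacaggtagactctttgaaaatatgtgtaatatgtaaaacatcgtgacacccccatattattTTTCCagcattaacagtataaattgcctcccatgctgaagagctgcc
Il2ra: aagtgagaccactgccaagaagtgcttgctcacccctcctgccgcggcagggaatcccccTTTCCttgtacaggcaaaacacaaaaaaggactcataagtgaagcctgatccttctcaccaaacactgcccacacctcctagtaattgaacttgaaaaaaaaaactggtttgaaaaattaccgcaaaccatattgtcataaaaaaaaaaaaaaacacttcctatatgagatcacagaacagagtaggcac
Il4ra: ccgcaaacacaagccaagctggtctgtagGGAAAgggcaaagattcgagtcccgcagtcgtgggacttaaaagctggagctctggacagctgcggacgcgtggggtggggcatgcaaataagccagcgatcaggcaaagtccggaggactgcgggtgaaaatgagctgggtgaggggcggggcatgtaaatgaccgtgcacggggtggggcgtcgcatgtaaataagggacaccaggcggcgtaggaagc
The core was found at 137 and 47 bases before the *Il2* start, at 190 before that of *Il2ra* and at 221 before that of *Il4ra*. Windows were found in RefSeq for 7 of the 8 genes, 8 in all because *Il15ra* has 2 starts. The core occurred in 5 of these 8 windows and in 55.6% of the 32851 windows of all genes. The AP-1 motif TGANTCA occurred in 1 (*Il15ra*, its downstream start) against 6.75% of all windows, and the ROR motif AGGTCA in 1 (*Il21r*) against 14.0%. Neither the STAT motif TTCNNNGAA (7.02% of all windows) nor the ACGTG form of the hypoxia response core (16.6%) was found in any window of the 8 genes. The GCGTG form of that core was not searched. Both strands were searched, and no window of the 8 genes held more than 1 kind of the motifs searched, so none of these overlapped. A match in so short a window is a description of letters and not of binding.

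*Il2ra* and *Il2rb*, the chains that with the gamma chain make up the high affinity IL-2 receptor, were both higher in RORγtN275D cells. *Il2ra* (gene ID 16184, chromosome 2, 11642792 to 11693194) had 25937, 26279 and 27352 normalized reads in the WT libraries and 32250, 32288 and 33130 in the RORγtN275D libraries. All RORγtN275D libraries lay above all WT libraries. The log2 fold change of *Il2ra* was 0.30 (standard error 0.03), a ratio of means of 1.23. It was the 45th gene by mean normalized reads in WT and the 29th in RORγtN275D cells. Regulatory T cells carry much *Il2ra*, and their 6 markers summed to 1436 to 1549 normalized reads in WT and 1578 to 1680 in RORγtN275D libraries, with *Foxp3* at 41.4 to 59.9 and 32.6 to 42.1. The part of these cells in the *Il2ra* difference was not tested.

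*Il2rb* (gene ID 16185, chromosome 15, 78479256 to 78511621), which is also part of the IL-15 receptor, had 10186, 10378 and 11259 normalized reads in WT and 13118, 12816 and 12869 in RORγtN275D libraries. WT replicate 3 was the highest of its group and still lay below each RORγtN275D library. The log2 fold change of *Il2rb* was 0.29 (standard error 0.04), close to that of *Il2ra*. NK cells also express *Il2rb*, and 3 of the 4 CD8 T and NK cell markers tested were called higher, at levels far below it. The other was not called. The part of these cells in the *Il2rb* difference was not tested.

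*Il2rg* (gene ID 16186, chromosome X, 101264385 to 101268255), the chain shared by all of these receptors, differed the other way. It had 7057, 7317 and 7014 normalized reads in WT and 6370, 6001 and 5977 in RORγtN275D libraries. The groups were separate, with the lowest WT library above the highest RORγtN275D library, and the log2 fold change was -0.22 (standard error 0.04). The alpha and beta chains of the IL-2 receptor were therefore higher while the gamma chain was lower in the same libraries.

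Ratios between chains, with normalized reads per kb of exons taken within each library, restate this shift on another scale. Where 2 chains moved apart without overlap, their ratio cannot overlap either, so these ratios add no separate evidence. *Il2ra* stood to *Il2rg* at 1.56 ± 0.07 in WT and 2.23 ± 0.10 in RORγtN275D cells (SD, n = 3 each), without overlap. The ratio of *Il2rb* to *Il2rg* was 0.83 ± 0.06 in WT and 1.18 ± 0.03 in RORγtN275D cells (SD, n = 3 each), again without overlap. *Il2ra* to *Il2rb*, in contrast, was 1.88 ± 0.05 and 1.89 ± 0.04 (SD, n = 3 each), with overlapping libraries. The 6 other receptor chains together stood to *Il2rg* at 3.29 ± 0.17 in WT and 4.54 ± 0.16 in RORγtN275D cells (SD, n = 3 each). For transcripts of the ligand against its alpha chain, the ratio of *Il2* to *Il2ra* was 1.95 ± 0.06 in WT and 0.33 ± 0.01 in RORγtN275D cells (SD, n = 3 each).

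Of the chains that pair with the gamma chain for other cytokines, *Il4ra* differed in the upward direction. *Il4ra* (gene ID 16190, chromosome 7, 125552271 to 125579474) encodes a chain that binds IL-4 and is also part of an IL-13 receptor. It had 6103, 6068 and 6254 normalized reads in WT and 7973, 7900 and 7827 in RORγtN275D libraries. Its replicates were the tightest of the 8 genes on the log2 scale, with an SD of 0.02, and its log2 fold change was 0.36 (standard error 0.03). B cells also express *Il4ra*, and the summed B cell markers given above were higher in RORγtN275D libraries. Their part in the *Il4ra* difference was not tested.

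*Il21r* (gene ID 60504, chromosome 7, 125603252 to 125634397) binds IL-21, a cytokine that Th17 cells make and respond to. It had 5297, 5381 and 5797 normalized reads in WT and 5109, 5148 and 5090 in RORγtN275D libraries, groups that did not overlap but lay close together. The log2 fold change was -0.10 (standard error 0.04). Of the 7 calls it was lost most often, in 10 of 16 alternatives, among them those without WT replicate 3 (-0.06) or without any 1 of the RORγtN275D libraries (-0.11 to -0.10), edgeR (-0.09), DESeq2 (-0.10), the replicate block and quantile normalization (-0.0055).

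*Il9r* and *Il15ra* were the low members. *Il9r* (gene ID 16199, chromosome 11, 32187544 to 32205283), the chain that binds IL-9, had 30.3, 37.3 and 24.6 normalized reads in WT and 55.9, 79.3 and 60.2 in RORγtN275D libraries. The lowest RORγtN275D library was above the highest WT library, and the log2 fold change was 1.06 (standard error 0.19). These values rest on 25 to 79 reads, for which counting alone gives a coefficient of variation of 20% at the lowest and 11.3% at the highest, while the replicates varied by 20.8% in WT and 19.1% in RORγtN275D cells. The fold change was just past 2-fold and was under it without WT replicate 3 or without RORγtN275D replicate 2, with 0.92 as the lowest value when 1 library was left out. *Snrnp25*, whose annotation ends 0.13 kb from that of *Il9r*, had a log2 fold change of 0.0013 (limma, adjusted p = 0.99).

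*Il15ra* (gene ID 16169, chromosome 2, 11705172 to 11733985), which presents IL-15 to cells with the beta and gamma chains, had 125, 137 and 143 normalized reads in WT and 138, 150 and 137 in RORγtN275D libraries. The groups overlapped, and the log2 fold change was 0.07, with a 95% interval from -0.14 to 0.28. A difference of that size was not detectable here. Counting alone gives a coefficient of variation of 8.98% at 124 reads and 8.16% at 150.

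**Figure D2:**
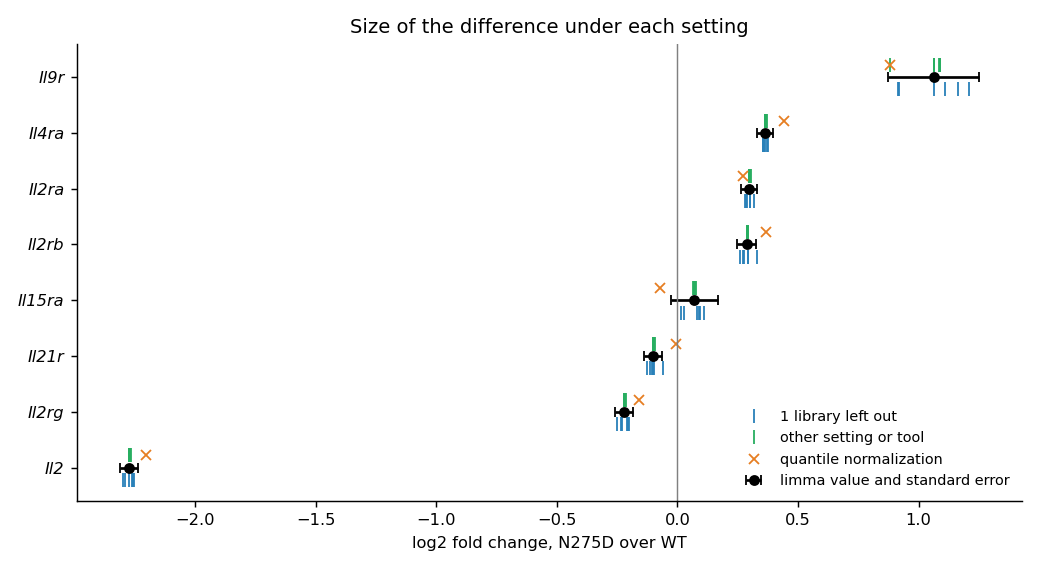
Log2 fold change of each gene, RORγtN275D over WT, by limma with its standard error (black), with 1 library left out (blue), under other settings and tools (green) and under quantile normalization (orange). *Il2* lies at -2.27, the other genes lie between -0.22 and 1.06, and only the orange cross of *Il15ra* falls on the other side of 0, at -0.07.

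Levels of different genes were compared per length, as normalized reads per kb of the exons annotated in GENCODE M21. In WT cells *Il2* was the highest of the 8, with 8830, 9288 and 9052 per kb. It was followed by *Il2ra* (4644 ± 129 per kb), *Il2rg* (2987 ± 68.7), *Il2rb* (2474 ± 133), *Il21r* (1652 ± 80.6) and *Il4ra* (1023 ± 16.5), then *Il15ra* (30.4 ± 2.09) and *Il9r* (6.21 ± 1.29), as means per kb with the SD of 3 libraries. No neighbours in this order had overlapping libraries. In RORγtN275D cells the order was *Il2ra* (5701 ± 87.1 per kb), *Il2rb* (3017 ± 37.6), *Il2rg* (2562 ± 92.3), *Il2* (1872 ± 60.6), *Il21r* (1539 ± 8.96), *Il4ra* (1316 ± 12.2), *Il15ra* (31.9 ± 1.68) and *Il9r* (13.2 ± 2.51), and again no neighbours overlapped. *Il2* thus went from the first place to the fourth, and *Il2rb* and *Il2rg* exchanged places. With the longest transcript as the length the WT order was the same, but in RORγtN275D cells *Il2rg* stayed above *Il2rb* and *Il21r* came above *Il2*, so that the exchange depends on the length chosen.

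**Figure D3:**
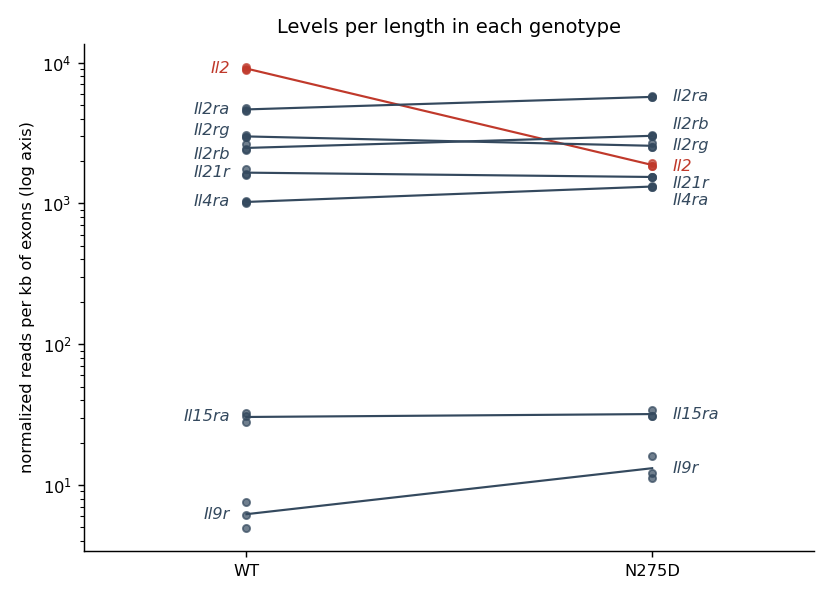
Normalized reads per kb of exons (log axis) in the 3 WT and the 3 RORγtN275D libraries (points), with lines between the means. *Il2* (red) goes from 9057 to 1872 per kb and crosses below the 3 chains of the IL-2 receptor, while *Il15ra* and *Il9r* stay under 35 per kb in both genotypes.

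The other cytokines of the family were read from a list of 5. *Il21* and *Il9* were the only ones with a mean of at least 10, and both fell in RORγtN275D cells, where 26.1% of all genes tested were called lower. *Il21* had 3797, 3912 and 3469 normalized reads in WT and 2368, 2462 and 2561 in RORγtN275D libraries, a log2 fold change of -0.60 ± 0.05 (SE), at an adjusted p of 4.51e-08 in limma. *Il9* had 734, 695 and 747 in WT and 583, 583 and 622 in RORγtN275D libraries, a log2 fold change of -0.28 (limma, adjusted p = 0.000560). *Il4*, *Il7* and *Il15* reached at most 3.93 normalized reads. All 3 cytokine genes of the family that were expressed were therefore lower in RORγtN275D cells, *Il2* by the widest margin.

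Of the receptor chains linked to this family but not among the 8 genes, *Il7r*, *Il13ra1* and *Crlf2* were tested, and all 3 rose. Over all genes tested, 24.7% were called higher. *Il7r*, the chain of the IL-7 receptor and a gene that IL-2 signalling is known to repress, had 594, 622 and 559 normalized reads in WT and 1557, 1430 and 1518 in RORγtN275D libraries. The log2 fold change of *Il7r* was 1.34 ± 0.05 (SE), at an adjusted p of 1.49e-11 in limma. The largest among the 7 receptor chains above was 1.06, for *Il9r*, and the difference between them was not tested. *Il13ra1*, which joins *Il4ra* in another IL-4 and IL-13 receptor, had a log2 fold change of 0.39 (limma, adjusted p = 0.0495). *Crlf2*, which joins *Il7r* in the TSLP receptor, had one of 0.15 (limma, adjusted p = 0.0497). The calls of *Il13ra1* and *Crlf2* were lost under the replicate block and without 1 library in 5 of 6 cases each. Both were also lost in DESeq2 (adjusted p = 0.198 and 0.144), under quantile normalization and with every gene above 0. That of *Crlf2* was lost with a pseudocount of 10 as well.

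Of the 6 kinases and STATs behind the receptors, 2 rose and 1 fell, a share called of 50% that was near the 50.9% of all genes tested. *Jak1* (0.04, 95% interval -0.04 to 0.12), *Jak3* (-0.03, -0.11 to 0.05) and *Stat6* (-0.05, -0.12 to 0.03) did not pass the test on the log2 scale. *Stat5a*, the main STAT of IL-2 signalling together with *Stat5b*, had 13350, 13812 and 14646 normalized reads in WT and 11768, 12149 and 11949 in RORγtN275D libraries, and fell by 0.22 on the log2 scale (limma, adjusted p = 0.000130). *Stat5b* rose by 0.10 (limma, adjusted p = 0.0212). That call was lost under the replicate block, without a trend, and without WT replicate 1, WT replicate 2, RORγtN275D replicate 1 or RORγtN275D replicate 2. *Stat3*, which IL-21 and IL-6 activate and which drives Th17 differentiation, rose by 0.22 (limma, adjusted p = 2.85e-05).

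Feedback inhibitors of these receptors were mostly higher. Of 8 tested, 5 rose and 2 fell, a share called of 87.5% against 50.9% of all genes tested. *Socs3*, an inhibitor of STAT3 signalling, had 1225, 1265 and 1349 normalized reads in WT and 2477, 2446 and 2561 in RORγtN275D libraries. Its log2 fold change was 0.96 ± 0.05 (SE), at an adjusted p of 8.67e-11 in limma. *Socs2*, a STAT5 target, had a log2 fold change of 0.51 (limma, adjusted p = 4.10e-05). *Sh2b3*, an adaptor that restrains cytokine receptor signalling, was one of those that fell (-0.39, limma adjusted p = 4.58e-06), and the other was *Ptpn6*.

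Genes known to be induced by IL-2 and STAT5 were tested as a list of 26, of which 16 rose, 5 fell and 5 were not called. This is a share called of 80.8%, against 50.9% of all genes tested. *Tnfrsf9*, the costimulatory receptor 4-1BB, had the largest difference, from 666, 631 and 722 normalized reads in WT to 2591, 2476 and 2637 in RORγtN275D libraries. The log2 fold change of *Tnfrsf9* was 1.93 ± 0.05 (SE), at an adjusted p of 1.42e-13 in limma. *Il12rb2*, a chain of the IL-12 receptor, had 1160, 1180 and 1146 and then 2825, 2765 and 2780 normalized reads, a log2 fold change of 1.26 (limma, adjusted p = 9.25e-13). *Prf1*, which encodes perforin, was low but also rose, by 1.01 (limma, adjusted p = 7.65e-06). The median log2 fold change of the list was 0.27. Those that fell were *Lta*, *Ccnd3*, *Ctla4*, *Tnfrsf4* and *Tfrc*, a mixture of cytokine, cell cycle, checkpoint, costimulatory and iron uptake genes.

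Genes known to be repressed by IL-2 and STAT5 were also mostly higher, with 6 of 10 that rose, 1 that fell and a median log2 fold change of 0.27. Their share called was 70%, against 50.9% of all genes tested. *Il7r*, which belongs to this list too, had the largest difference. *S1pr1*, the receptor for egress from lymphoid tissue, had 609, 654 and 616 normalized reads in WT and 1258, 1300 and 1299 in RORγtN275D libraries, a log2 fold change of 1.04 (limma, adjusted p = 1.09e-10). The member that fell was *Il6ra* (-0.36, limma adjusted p = 0.00127). Members known to be induced and members known to be repressed by IL-2 thus both had more genes that rose than fell.

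Factors that act on the *Il2* gene were listed as activators and repressors. Of 12 activators, 7 fell and 1 rose, with a median log2 fold change of -0.37. Calls made up 66.7% of this list, where 50.9% of all genes tested were called and 26.1% were called lower. *Nfatc1*, one of the NFAT factors, had 3189, 3399 and 3590 normalized reads in WT and 1648, 1611 and 1570 in RORγtN275D libraries, and fell by 1.07 on the log2 scale (limma, adjusted p = 2.64e-11). *Egr1* fell by 0.70 (limma, adjusted p = 4.61e-08) and *Fosb*, an AP-1 subunit, fell by 0.68 (limma, adjusted p = 2.14e-05). The activator that rose was *Jun* (0.60, limma adjusted p = 4.68e-08).

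Among 10 repressors of *Il2*, 3 rose and 3 fell, a share called of 60% that was not far from the 50.9% of all genes tested. *Crem*, a cAMP-responsive factor known to repress *Il2* in T cells, had 976, 921 and 865 normalized reads in WT and 2332, 2295 and 2383 in RORγtN275D libraries, a log2 fold change of 1.34 (limma, adjusted p = 4.50e-12). *Egr3*, which restrains T cell activation, had 1585, 1573 and 1735 and then 558, 567 and 546 normalized reads, a log2 fold change of -1.55 (limma, adjusted p = 1.67e-12). *Prdm1*, at 36.3 to 59.3 normalized reads, had a log2 fold change of 0.44 (limma, adjusted p = 0.0316), a call lost without 1 library in 4 of 6 cases. It was also lost in DESeq2 (adjusted p = 0.138), under quantile normalization and with every gene above 0. *Ikzf3*, which encodes the *Il2* repressor Aiolos of Th17 cells, was not called (0.12, limma adjusted p = 0.360).

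Regulators of *Il2* mRNA decay moved mostly downward, with 10 of 12 that fell, 1 that rose and a median log2 fold change of -0.19. Of this list 91.7% were called, against 50.9% of all genes tested. *Zfp36l1*, a protein that binds AU-rich elements and promotes decay, had a log2 fold change of -0.56 (limma, adjusted p = 7.12e-07). *Zc3h12a*, the ribonuclease Regnase-1, had 1820, 1753 and 1849 normalized reads in WT and 1309, 1339 and 1256 in RORγtN275D libraries, a log2 fold change of -0.47 (limma, adjusted p = 3.28e-07). *Rc3h2*, a Roquin protein, was the one that rose (0.48, limma adjusted p = 1.12e-05). Counted once each, 35 of the 86 pathway genes tested rose and 31 fell, together 76.7%, against 50.9% of all genes tested. The lists were written with earlier results of these data known, so this share is a description.

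**Figure D4:**
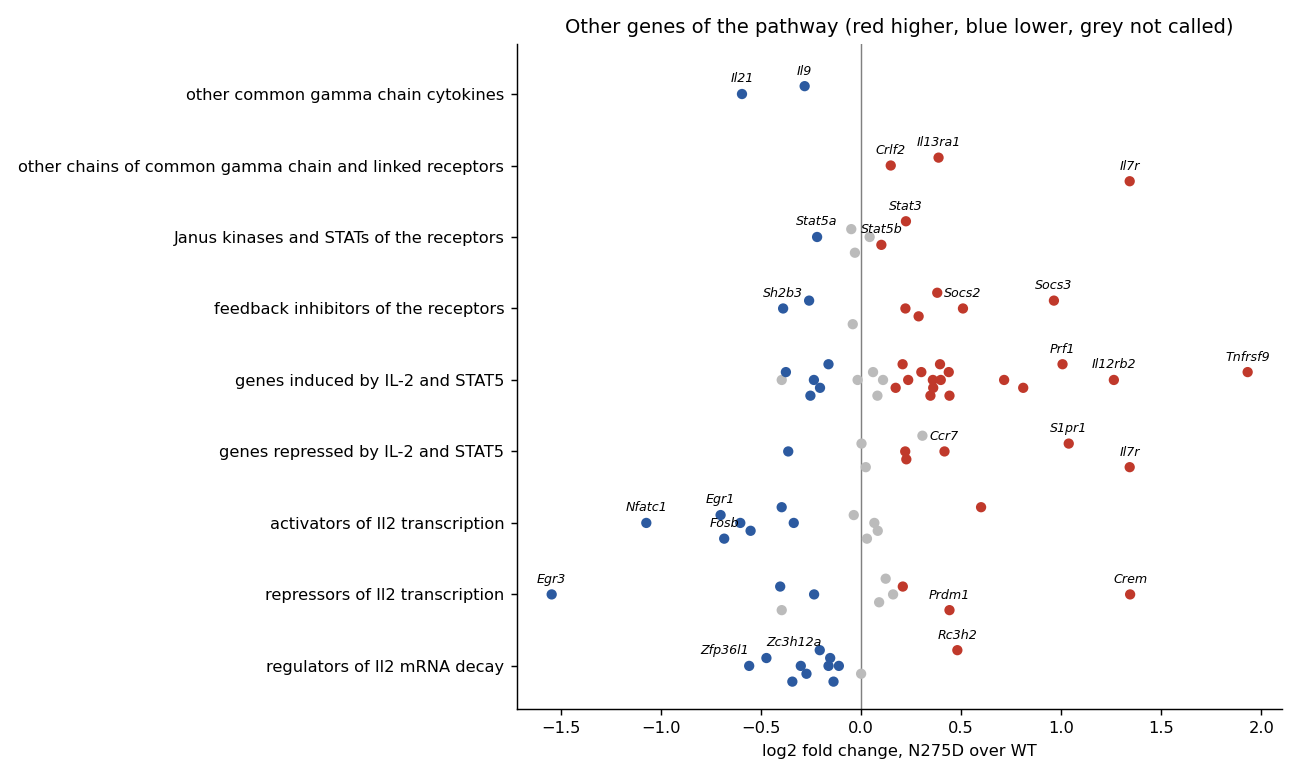
Log2 fold change, RORγtN275D over WT, of the pathway genes outside the 8, by list, red for genes called higher, blue for lower and grey for genes not called, with genes of the largest called differences named and 1 gene left out. Points of the activators and of the mRNA decay regulators lie mostly left of 0, and those of both IL-2 and STAT5 lists mostly right of it.

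Several of the 8 genes lie next to each other in the genome. *Il2ra* and *Il15ra* are 12.0 kb apart on chromosome 2, *Il4ra* and *Il21r* are 23.8 kb apart on chromosome 7, and *Il2* lies 96.8 kb from *Il21* on chromosome 3. *Il2* and *Il21* were both lower in RORγtN275D cells, whereas the other pairs were not alike, with *Il2ra* at 0.30 beside *Il15ra* at 0.07 and *Il4ra* at 0.36 beside *Il21r* at -0.10 on the log2 scale.

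Around *Il2*, 4 genes within 200 kb were tested, of which 2 rose and 1 fell, where 50.9% of all genes tested were called. So few genes show nothing particular to the neighbourhood. *4932438A13Rik*, the nearest on the other side from *Il21*, rose (0.23, limma adjusted p = 0.000574). Around *Il2ra*, 2 of 6 genes were called, a share below that of all genes tested, and both fell. They were *Rbm17*, the nearest on the side away from *Il15ra* (-0.14, limma adjusted p = 0.0126), and *Pfkfb3*, an enzyme that promotes glycolysis (-0.84, limma adjusted p = 2.64e-10). *Fbh1*, next to *Il15ra* on its far side, was not called (0.10, limma adjusted p = 0.0798). Beside *Il4ra*, *Nsmce1* was not called (0.05, limma adjusted p = 0.403), and beside *Il21r*, *Gtf3c1* fell (-0.38, limma adjusted p = 3.03e-07).

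Near *Il2rb*, *Tmprss6* was not called (-0.34, limma adjusted p = 0.0526) and *C1qtnf6* rose (0.50, limma adjusted p = 0.0435). Farther along, 128 kb from *Il2rb*, *Csf2rb*, the common beta chain of the receptors for GM-CSF, IL-3 and IL-5, had 9.08, 15.1 and 9.82 normalized reads in WT and 36.9, 37.1 and 31.6 in RORγtN275D libraries. Its log2 fold change was 1.58 (limma, adjusted p = 6.88e-05), and that of its close paralog *Csf2rb2* next to it was 0.97 (limma, adjusted p = 0.000374), so that reads of the pair may have been split uncertainly. Near *Il2rg*, *Gm614* was not called (0.46, limma adjusted p = 0.112), *Med12* fell (-0.13, limma adjusted p = 0.02), and *Slc7a3*, an amino acid transporter 174 kb away, rose by 1.34 (limma, adjusted p = 1.00e-10). On the side of *Il9r* away from *Snrnp25*, *Nsg2* fell (-0.37, limma adjusted p = 0.00206). The neighbours of the 8 genes thus moved in both directions.

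**Figure D5:**
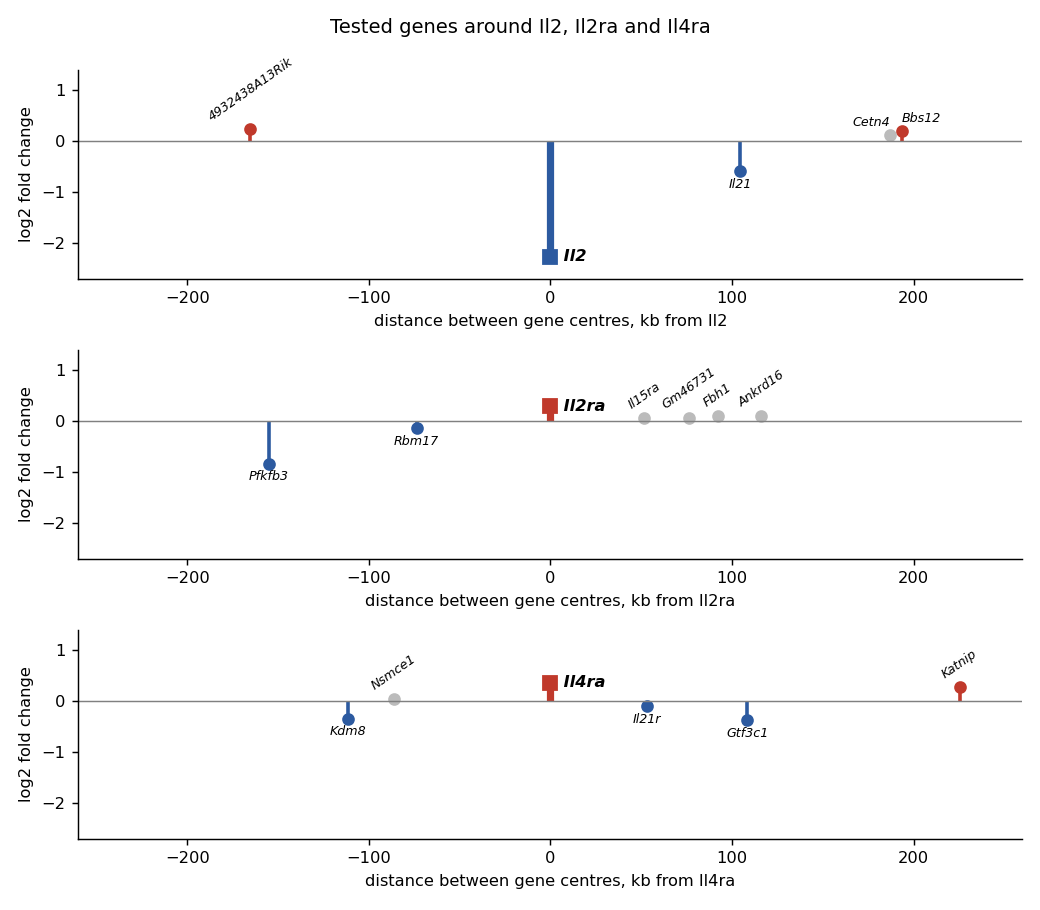
Log2 fold change, RORγtN275D over WT, of the genes tested within 200 kb of *Il2*, *Il2ra* and *Il4ra* (squares at a distance of 0), plotted by the distance between gene centres in kb, red for higher, blue for lower and grey for not called. *Il21* at -0.60 shares the direction of *Il2*, and *Il21r* at -0.10 lies opposite *Il4ra*.

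The 5 genes whose log2 values followed *Il2* most closely over the 6 libraries were *Cd5l*, *Rbm19*, *Gart*, *Plk3* and *Pdcd11*, with Pearson's r between 0.9993 and 0.9997. All 5 were lower in RORγtN275D cells, with log2 fold changes from -0.41 for *Gart* to -1.02 for *Cd5l*, smaller than that of *Il2*. The 6 points fall into 2 groups, so r is a description only, and it was above 0.99 for 233 genes.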

How the data were processed

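RNA was sequenced from 3 WT and 3 RORγtN275D samples, assigned from their titles. According to the study's methods, strand-specific libraries were read on the DNBSEQ platform (per the labels, after poly-A selection with a different directional kit), trimmed, aligned to mm10 with STAR and counted with featureCounts. Their versions are not given in the sources used here. Each deposited signal value is a gene's read number that the authors scaled by 1 factor for the whole library. All values (100% in each library, within 1e-06) could be divided by that factor into whole numbers, which gave back the reads. The deposited table also holds the authors' log2 fold changes, q-values (p-value columns), whole-number average signal values and transcript numbers, which were not used. Columns of other samples numbered 0.

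A pseudocount of 1 was added before taking log2, and genes with a mean of at least 10 were tested with limma (version 3.58.1, R 4.3.3) with a trended prior of 12.0 degrees of freedom and no block, with Benjamini-Hochberg adjustment over all genes. With 3 libraries against 3, the smallest two-sided p of an exact permutation test for 1 gene is 0.1. The 8 genes, the pathway and marker lists and the tests were chosen from general knowledge with earlier results of these data known, and no list is independent evidence. Named are the 8 genes, pathway genes called at 2-fold, the 3 largest called differences of each list, the nearest tested neighbours and those called at 2-fold within 200 kb, and the 5 genes most like *Il2*. Some genes that this rule or the marker lists cover are not reported here by name. *Il17a*, *Il17f*, *Il23r*, *Ccr6*, *Ptpn6*, *Jun*, *Il6ra*, *Ikzf3*, *Pfkfb3*, *Jak1*, *Jak3*, *Stat6*, *Csf2rb2*, *Foxp3*, *Ebf1* and the 5 induced genes that fell were named after their values were seen. *Il7r*, *Prdm1* and *Foxp3* stand in 2 lists each. Of 6 gamma delta T cell markers only *Sox13* was in the table (18.2 to 38.5 normalized reads). Treg markers (2 of 6 higher, 2 lower) summed to 1436 to 1549 normalized reads in WT and 1578 to 1680 in RORγtN275D libraries, and 6 myeloid markers to 47.4 to 52.5 and 43.1 to 57.9.

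Coordinates and promoter sequences are from RefSeq (GRCm38.p6, the build of mm10), matched by gene number, and lengths from GENCODE M21. The squared difference between replicates, as a median over genes, was 1.32 to 3.05 times that of counting noise. This is a ratio of variances and not of SDs, and each replicate was counted as a library. The fit was repeated with pseudocounts of 0.1 and 10, with every gene above 0 or only means from 100 up, after TMM or quantile scaling, without a trend, with a replicate block, and with each library left out. Recovered reads were also tested with DESeq2 (version 1.42.0) and edgeR (version 4.0.16). The scripts were tested on simulated data.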

Additional observations from a re-analysis of the deposited data

How the results depend on the processing

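*Il2*, *Il2ra*, *Il2rb*, *Il2rg* and *Il4ra* kept their direction and call under all 16 alternatives, and *Il9r* did so wherever it was tested. The log2 fold change of *Il2* ranged from -2.30 to -2.20. Calls at 2-fold over all genes numbered 427, and 259 with a pseudocount of 10, 703 with all genes with a mean above 0 and 162 with a mean of at least 100, which tests fewer genes. Calls at 2-fold among the 8 genes fell from 2 to 1 with a pseudocount of 10, a mean of at least 100 (which leaves out *Il9r*) and quantile normalization. With 1 library left out they were 1 to 2, calls at 2-fold over all genes 413 to 456, those at any fold change 5158 to 6398, pathway calls 58 to 64 and calls among the 8 genes 6 to 7. With the longest transcript as length, 4 genes changed place in the order of levels in RORγtN275D cells and 0 in WT. Quantile normalization put *Il15ra* at -0.0705 in place of 0.0691, and the cause was not tested. Same-numbered libraries did not deviate together (correlations -0.05, 0.04 and -0.08). The titles name no pairing, and with 3 libraries per group these correlations cannot exclude one. With the replicate block 5727 genes were called and 428 at 2-fold, against 6056 and 427 without it. Of 397 values of the 25 named pathway genes, 365 kept their call, 32 lost it and 0 reversed. Depth limits *Il9r* most, with 25 to 79 reads, and groups of 3 were not searched for outlying samples.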
